A study of Danio rerio with 6 samples.

Results

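Desmosomes and the cornified envelope are built on a small set of linker proteins, and their genes were followed here across wild-type melanophores and both melanoma groups of a zebrafish melanoma model. The genes were taken by name, without regard to case, and a name with suffix a or b that was absent was looked up without its suffix. Of the 9 names, 8 were found among the 32520 gene identifiers counted: dsc2l, jupa, pkp1b, pkp3a, dspa, dspb, evpla and ppl. No identifier was matched to evplb, which is not analysed here.

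A desmosome is a spot-like junction that ties the keratin filaments of neighbouring epithelial cells together. Desmosomal cadherins such as desmocollin span the membrane, and the armadillo proteins plakoglobin and the plakophilins bind their tails inside the cell. Desmoplakin, a protein of the plakin family, then links this plaque to the keratin filaments. Envoplakin and periplakin are plakins as well. In mammals they associate with desmosomes and form part of the scaffold of the cornified envelope, the cross-linked protein shell beneath the membrane of the outer keratinocytes. In skin these genes are known chiefly from the epidermis, and plakoglobin also occurs in adherens junctions.

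The 3 groups were mgat4b mutant melanoma, control melanoma and wild-type melanophores, with 2 libraries each, from fish 1 month old. Both melanoma groups came from MAZERATI fish, in which plasmids put into the fertilized egg drive an activated BRAF oncogene and Cas9 from the mitfa promoter, so that p53 and ptena/b are cut in melanocytes. In the mutant group mgat4b, which encodes an enzyme that branches N-glycans, was cut in melanocytes too. The control group carried a control plasmid instead, given as a nontargeting guide in the paper's text and as mitfa:EV in a figure legend. According to the paper's methods the melanomas were started in fish of the ASWT wild-type strain, and the wild-type group carried none of these plasmids. The fish are mosaic, with the cuts made only in cells where mitfa is active. According to the study's text the controls made tumors whereas the mutant lesions were aggregates, so the melanoma groups differ in the kind of lesion as well as in genotype. Skin or lesion was dissociated and pigmented cells were enriched on a density gradient, with no sorting by a marker. The series text speaks of 5 zebrafish without saying which fish went into which library. Libraries of one group may therefore share fish, and p-values measure only the spread between these libraries.

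The libraries held 5225341 and 3538922 counts in mutant melanoma, 8223044 and 8446997 counts in control melanoma, and 7351705 and 7121087 counts in wild-type melanophores. One noncoding RNA gene, rn7sl1, took 30.7% and 26.2% of the counts in mutant melanoma, 37.4% and 37.3% in control melanoma and 7.65% in each wild-type library, so levels are given as CPM, counts relative to library size, after scaling by the trimmed mean of M values (TMM). The targeted gene mgat4b had 94 and 52 counts in mutant melanoma, 102 and 107 counts in control melanoma, and 264 and 260 counts in wild-type melanophores. Its counts did not separate the mutant from the control libraries (log2 fold change 0.17, SE 0.28, adjusted p = 0.717, edgeR), and a cut gene can still be transcribed, so the label was not checked by it. The 18 melanophore marker genes summed to 428 and 387 CPM in mutant melanoma, 420.0 and 441 CPM in control melanoma, and 169 and 182 CPM in wild-type melanophores. Much of the wild-type sum came from tspan36, which averaged 112 CPM there, 98.8 CPM in mutant and 138 CPM in control melanoma. The pigment gene pmela averaged 4.52 CPM in wild type, against 86.6 CPM in mutant and 67.1 CPM in control melanoma. The median log2 fold change of the tested marker genes against wild type was 2.04 in mutant and 2.54 in control melanoma. The sums thus understate how low most of these markers were in the wild-type libraries. The 19 keratin genes summed to 13450 and 12710 CPM in mutant melanoma, 9870 and 9881 CPM in control melanoma, and 16529 and 16920 CPM in wild-type melanophores. Summed without regard to gene length, keratin counts thus outnumbered those of the pigment cell markers in all libraries, also those labelled melanophores, and the linker genes were measured in mixed cells. In such bulk samples, fewer cells of a type and less RNA per cell cannot be told apart.

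All 8 linker genes were detected in all 6 libraries, and all passed the filter on low counts in each comparison. Their counts summed to 11131 and 7839 in mutant melanoma, 15725 and 16066 in control melanoma, and 42699 and 40178 in wild-type melanophores. After TMM scaling the sums were 2381 and 2317 CPM in mutant melanoma, 2430 CPM in each control melanoma library, and 4201 and 4109 CPM in wild-type melanophores. The summed level was thus lower in the 4 melanoma libraries than in both wild-type libraries, and the melanoma groups differed from each other by little.

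**Figure D1:**
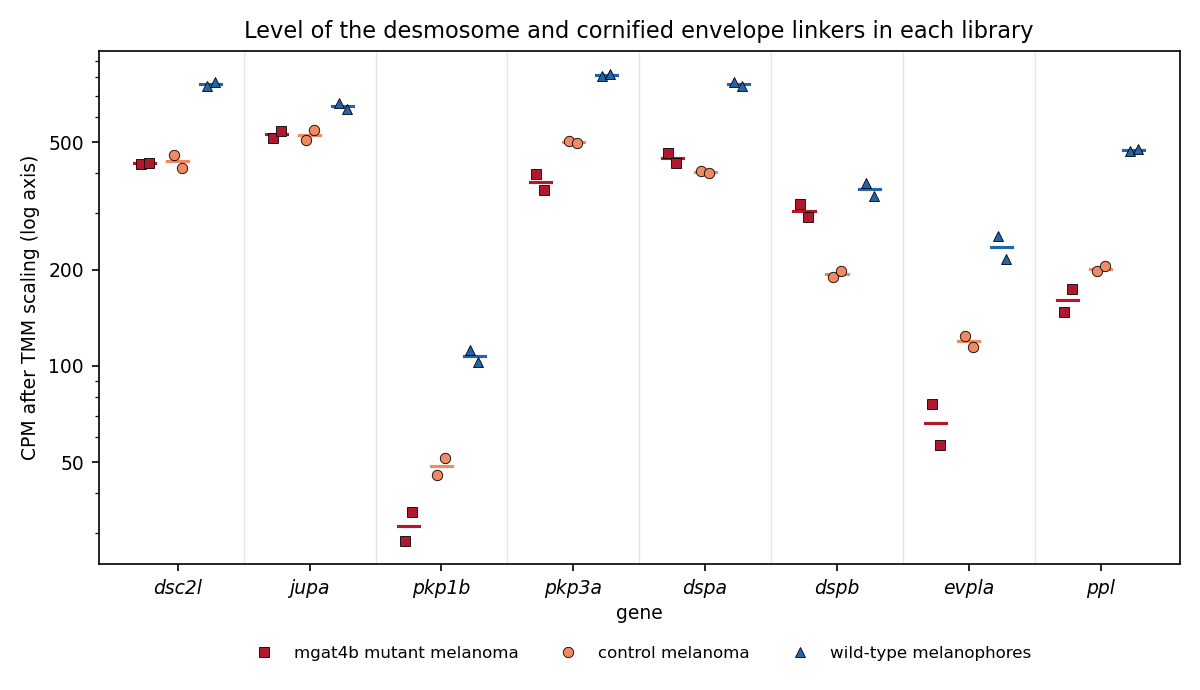
Level of each linker gene in each library, in CPM after TMM scaling on a log axis, with squares for mgat4b mutant melanoma, circles for control melanoma and triangles for wild-type melanophores, and a bar at each group's mean. The wild-type libraries lie highest for all 8 genes, while the order of the melanoma groups differs between genes: dspb averaged 306 CPM in mutant and 194 CPM in control melanoma, and evpla 66.2 CPM in mutant and 119 CPM in control melanoma.

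Per kilobase of exons, which allows levels of different genes to be compared, the plaque proteins pkp3a and jupa, the cadherin dsc2l and the desmoplakin dspa were the most abundant in every group, and pkp1b and evpla the least. In mutant melanoma dsc2l stood first with 88.7 CPM per kilobase, ahead of pkp3a with 84.7 and jupa with 78.4, and neighbours among these 3 genes overlapped between libraries. They were followed by dspa with 60.2, dspb with 46.2, ppl with 27.2, pkp1b with 11.2 and evpla with 7.59 CPM per kilobase. In control melanoma the order was pkp3a with 112, dsc2l with 90.0, jupa with 77.8, dspa with 54.3, ppl with 34.1, dspb with 29.3, pkp1b with 17.1 and evpla with 13.7 CPM per kilobase. In wild-type melanophores it was pkp3a with 182, dsc2l with 157, dspa with 102, jupa with 95.8, ppl with 80.1, dspb with 53.9, pkp1b with 38.0 and evpla with 26.9 CPM per kilobase. No neighbours in the order overlapped between libraries in control melanoma or in wild-type melanophores. The order thus shifted at a few places: dspb stood above ppl in mutant melanoma and below it in the other groups, and jupa stood above dspa in both melanoma groups and below it in wild-type melanophores.

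Mutant melanoma was first compared with wild-type melanophores, with the quasi-likelihood test of edgeR and p-values adjusted by Benjamini and Hochberg's method over all genes tested. A call needed a log2 fold change of 1 or more in size besides an adjusted p below 0.05. Of the 8 linker genes, 4 were called lower in mutant melanoma (evpla, pkp1b, ppl and pkp3a) and none higher, while 9.54% of the 17950 genes tested were called lower, 9.72% higher and 19.3% in either direction. By the adjusted p alone, 7 of 8 were lower, against 13.9% of all genes tested, and dspb was the exception. That count varied when single libraries were left out. The log2 fold change then lay between -0.29 and -0.15 for dspb and between -0.32 and -0.25 for jupa. The median log2 fold change of the 8 genes was -0.94, against -0.03 over all genes tested. The 4 calls held when any of the 4 libraries was left out, but the share of all genes called in either direction moved to 33.3% and 32.2% without mutant replicate 1 or 2, and to 9.98% and 9.76% without wild-type replicate 1 or 2.

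Control melanoma was then compared with the same wild-type libraries, which makes the comparisons share their reference. The control libraries differed less from each other than the mutant libraries did. Like fold changes therefore have smaller p-values here, and p-values and counts passing them are not comparable between these comparisons. Of the 8 genes, 2 were called lower in control melanoma (ppl and pkp1b) and none higher, while 12.1% of the 19088 genes tested were called lower, 19.9% higher and 31.9% in either direction. By the adjusted p alone all 8 were lower, against 27.0% of all genes tested that were lower and 29.2% that were higher. The median log2 fold change of the 8 genes was -0.82, against -0.01 over all genes tested. The calls near the threshold depended on single libraries. Without control replicate 1, pkp1b had a log2 fold change of -0.99, short of the size a call needs. Without wild-type replicate 2, evpla had -1.03, past that size. When libraries were scaled by their summed keratin and epidermal identity counts in place of TMM, no linker gene was called, against 4.58% of all genes called lower and 32.1% called higher under that scaling. By the adjusted p alone 6 of the 8 were then lower, pkp3a (-0.07) did not pass, and the direction of jupa flipped to higher, against 10.4% lower and 49.5% higher over all genes.

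Set directly against control melanoma, mutant melanoma had none of the 8 genes called, while of the 17651 genes tested 6.68% were called lower, 5.86% higher and 12.5% in either direction. At an unadjusted p under 0.05, edgeR gave 4 of the 8 as lower, against 16.4% of all genes tested, and 1 as higher, against 16.1%, and DESeq2 also called 0. By the adjusted p alone, edgeR gave evpla and pkp3a as lower, against 9.26% of all genes tested, and dspb as higher, against 9.46%. These counts varied when single libraries were left out. The log2 fold change then lay between -1.08 and -0.64 for evpla, between -0.50 and -0.31 for pkp3a, and between 0.59 and 0.74 for dspb. The median log2 fold change of the 8 genes was -0.16, against -0.02 over all genes tested. Without mutant replicate 1, evpla reached -1.08 and was called. Leaving out mutant replicate 1 or 2 moved the share of all genes called to 26.6% and 25.6%, and leaving out control replicate 1 or 2 moved it to 6.22% and 6.20%. Scaled by keratin and epidermal identity counts, evpla (-1.32) and pkp1b (-1.09) were called lower, against 16.1% of all genes called lower and 2.32% called higher under that scaling, and the directions of dspa and jupa flipped to lower in mutant melanoma. By the adjusted p alone, that scaling gave 7 of the 8 genes as lower (all but dspb) and none as higher, against 23.3% lower and 3.85% higher over all genes, and DESeq2 gave 4 as lower and 1 as higher, against 11.4% of all genes in each direction.

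**Figure D2:**
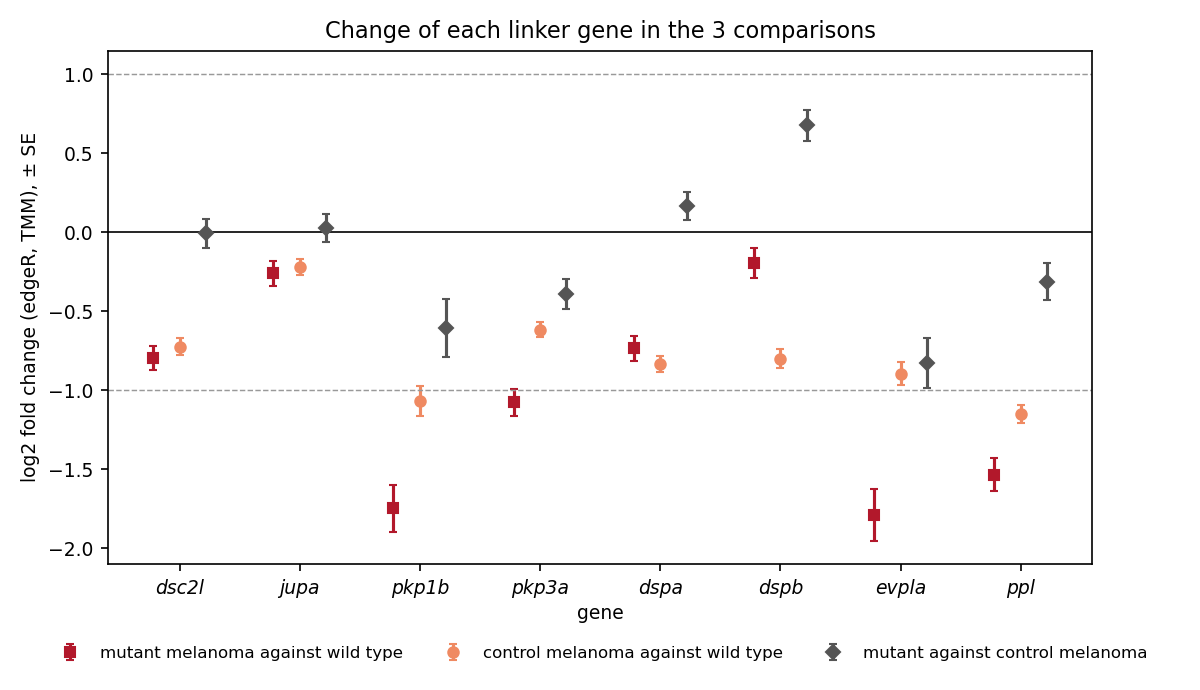
Log2 fold change of each linker gene with its SE, from edgeR after TMM scaling, in mutant melanoma against wild-type melanophores (squares), control melanoma against wild-type melanophores (circles) and mutant against control melanoma (diamonds), with dashed lines at the call threshold. Against wild type all 16 points lie below 0, but jupa in control melanoma moves to 0.32 when libraries are scaled by epidermal counts. The median over all genes is then 0.53. The points of mutant against control melanoma lie on both sides of 0, and under the epidermal scaling 7 of those 8 are below it. For that comparison the median over all genes is then -0.51.

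Among the membrane proteins of the desmosome, dsc2l encodes a desmocollin (ENSDARG00000039677, GRCz11 chromosome 20, 7262434 to 7293837, minus strand). It had 429 and 430.4 CPM in mutant melanoma, 456 and 417 CPM in control melanoma, and 751 and 773 CPM in wild-type melanophores. Both melanoma groups lay below the wild-type libraries without overlap, and they overlapped each other. This gave a log2 fold change of -0.80 in mutant melanoma against wild type (SE 0.076, adjusted p = 5.1e-04, edgeR) and -0.72 in control melanoma against wild type (SE 0.052, adjusted p = 4.5e-17). Mutant and control melanoma differed by -0.01 (SE 0.092, adjusted p = 0.976). This difference turned to 0.22 when CPM on raw totals were used and to 0.038 without control replicate 1. Under the epidermal scaling it was -0.49 (adjusted p = 0.0057), near the median over all genes of -0.51 in that comparison.

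The armadillo protein plakoglobin, encoded by jupa (ENSDARG00000070787, chromosome 11, 11719575 to 11781911, plus strand), had the smallest change against wild type of the 7 genes that passed the adjusted p in both melanoma groups. It had 517 and 543 CPM in mutant melanoma, 508 and 544 CPM in control melanoma, and 662 and 634 CPM in wild-type melanophores. The melanoma groups overlapped, and both lay below wild type. The log2 fold change was -0.26 in mutant melanoma against wild type (SE 0.079, adjusted p = 0.049, edgeR), and this adjusted p reached 0.469 when single libraries were left out. It was -0.22 in control melanoma against wild type (SE 0.051, adjusted p = 3.1e-04), which flipped to 0.32 under the epidermal scaling. The median over all genes was 0.53 under that scaling, above the value of jupa. Mutant and control melanoma differed by 0.03 (SE 0.089, adjusted p = 0.87), which flipped to -0.46 under the epidermal scaling, where the median over all genes was -0.51.

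The plakophilins pkp1b and pkp3a are armadillo proteins that bind desmosomal cadherins and desmoplakin. The gene pkp3a (ENSDARG00000051861, chromosome 25, 22151271 to 22191983, minus strand) had 399 and 355 CPM in mutant melanoma, 503 and 498 CPM in control melanoma, and 807 and 817 CPM in wild-type melanophores. The 3 groups did not overlap, with mutant melanoma lowest. It fell in mutant melanoma against wild type by 1.08 on the log2 scale (SE 0.087, adjusted p = 2.7e-04, edgeR), and control melanoma against wild type gave -0.62 (SE 0.049, adjusted p = 2.2e-15). Mutant against control melanoma gave -0.39 (SE 0.094, adjusted p = 0.021). Under the epidermal scaling the change against wild type was -0.95 in mutant melanoma, below the threshold of a call.

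The other plakophilin, pkp1b (ENSDARG00000052705, chromosome 6, 54711306 to 54754042, plus strand), was much less abundant. It had 28.4 and 34.9 CPM in mutant melanoma, 45.7 and 51.4 CPM in control melanoma, and 112 and 103 CPM in wild-type melanophores. The groups did not overlap, in the same order as for pkp3a. Its log2 fold change was -1.75 in mutant melanoma against wild type (SE 0.15, adjusted p = 3.2e-04, edgeR) and -1.07 in control melanoma against wild type (SE 0.094, adjusted p = 6.4e-14). Between mutant and control melanoma it was -0.61, which did not pass the test (SE 0.19, adjusted p = 0.051).

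Desmoplakin is encoded by a pair of genes in zebrafish, and they did not move alike. The gene dspa (ENSDARG00000022309, chromosome 2, 2110271 to 2162791, plus strand) had 465 and 431 CPM in mutant melanoma, 406 and 402 CPM in control melanoma, and 769.6 and 751 CPM in wild-type melanophores. Both melanoma groups were far below wild type, with mutant melanoma slightly the higher of them. The log2 fold change was -0.73 in mutant melanoma against wild type (SE 0.080, adjusted p = 9.6e-04, edgeR) and -0.83 in control melanoma against wild type (SE 0.051, adjusted p = 9.8e-20). Between mutant and control melanoma it was 0.17 (SE 0.090, adjusted p = 0.237), which flipped to -0.32 under the epidermal scaling. The median over all genes was -0.51 under that scaling.

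Its partner dspb (ENSDARG00000076673, chromosome 20, 52851793 to 52882881, minus strand) had 319.7 and 292 CPM in mutant melanoma, 189.9 and 198 CPM in control melanoma, and 374 and 340.1 CPM in wild-type melanophores. The mutant libraries lay between the other groups without overlap, close to wild type. For dspb the log2 fold change was -0.19 in mutant melanoma against wild type, which did not pass the test (SE 0.095, adjusted p = 0.18, edgeR). It was -0.80 in control melanoma against wild type (SE 0.062, adjusted p = 6.1e-16) and 0.68 in mutant against control melanoma (SE 0.10, adjusted p = 0.0020). The difference between the melanoma groups was 0.19 under the epidermal scaling and no longer passed the test (adjusted p = 0.174). The median over all genes was -0.51 under that scaling.

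The plakins of the mammalian cornified envelope were, with pkp1b, the linker genes that changed most against wild type. Envoplakin, evpla (ENSDARG00000019808, chromosome 6, 23057311 to 23082678, plus strand), had 75.9 and 56.5 CPM in mutant melanoma, 124 and 115 CPM in control melanoma, and 254 and 215 CPM in wild-type melanophores. The groups did not overlap, and mutant melanoma was lowest. The log2 fold change was -1.79 in mutant melanoma against wild type (SE 0.16, adjusted p = 4.2e-04, edgeR), -0.90 in control melanoma against wild type (SE 0.073, adjusted p = 5.6e-15) and -0.83 in mutant against control melanoma (SE 0.16, adjusted p = 0.0071). Its exons share 53 bases with another gene of the same strand, whose count reached at most 351 in a library, so that a few reads could be assigned to either gene.

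Periplakin, ppl (ENSDARG00000101043, chromosome 3, 36459790 to 36481986, minus strand), had 147 and 174 CPM in mutant melanoma, 198 and 205 CPM in control melanoma, and 471 and 475 CPM in wild-type melanophores. The melanoma libraries were all far below wild type. The log2 fold change was -1.53 in mutant melanoma against wild type (SE 0.11, adjusted p = 1.3e-04, edgeR) and -1.15 in control melanoma against wild type (SE 0.057, adjusted p = 4.5e-23). Between mutant and control melanoma it was -0.31, which did not pass the test (SE 0.12, adjusted p = 0.096), but under the epidermal scaling it was -0.80 and passed it (adjusted p = 0.0031). The median over all genes was -0.51 under that scaling.

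Because ratios of counts within a library do not depend on scaling, the composition of the linker set was compared in this way as well, without a test. Plakoglobin jupa made up 21.7% and 23.4% of the 8 genes' counts in mutant melanoma, 20.9% and 22.4% in control melanoma, and 15.7% and 15.4% in wild-type melanophores. Its share was higher in every melanoma library than in wild type. Periplakin ppl made up 6.18% and 7.50% in mutant melanoma, 8.13% and 8.45% in control melanoma, and 11.2% and 11.6% in wild-type melanophores, and here every melanoma library was lower. Desmoplakin dspb held 13.4% and 12.6% in mutant melanoma, 7.82% and 8.14% in control melanoma, and 8.91% and 8.28% in wild-type melanophores, so that only the mutant libraries stood out. Plakophilin pkp3a held 16.8% and 15.3% in mutant melanoma, 20.7% and 20.5% in control melanoma, and 19.2% and 19.9% in wild-type melanophores, the lowest in the mutant libraries. Desmocollin dsc2l held between 17.1% and 18.8% in all 6 libraries.

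**Figure D3:**
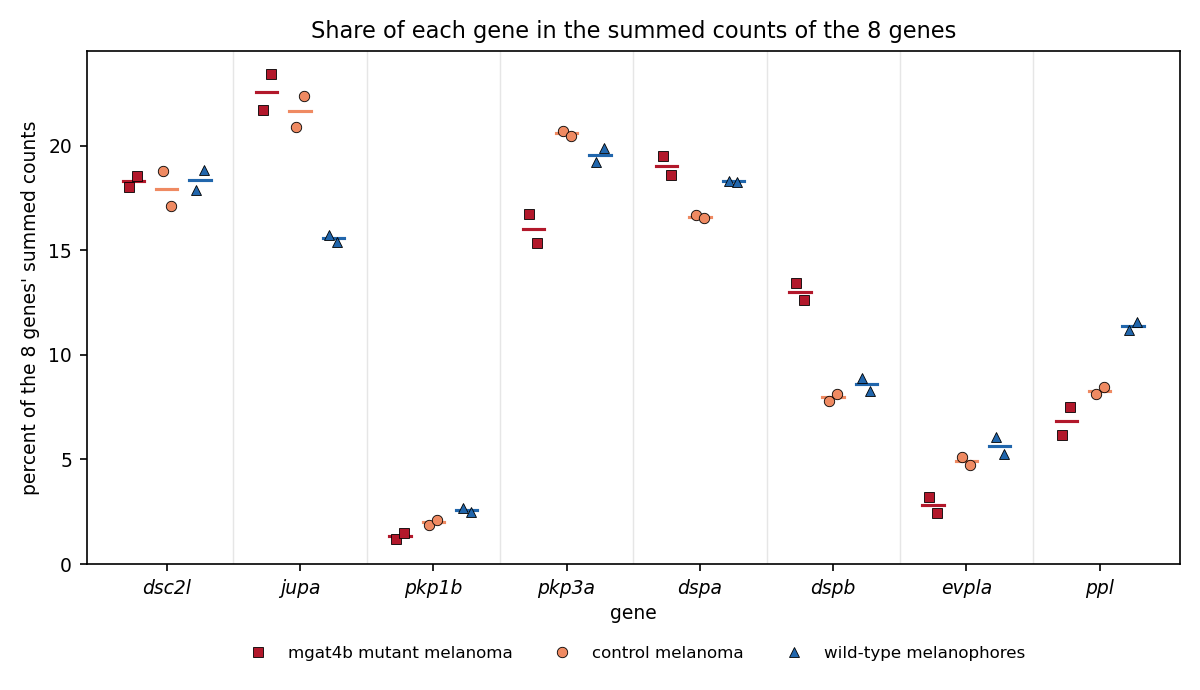
Percent of the 8 linker genes' summed counts that each gene took in each library, with squares for mgat4b mutant melanoma, circles for control melanoma, triangles for wild-type melanophores and a bar at each group's mean. The share of jupa is higher and that of ppl lower in all 4 melanoma libraries than in wild type, and dspb stands out in mutant melanoma at 13.4% and 12.6%.

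The ratio of dspa to dspb counts was 1.45 and 1.47 in mutant melanoma, 2.14 and 2.03 in control melanoma, and 2.06 and 2.21 in wild-type melanophores. The balance of the desmoplakin pair thus differed in mutant melanoma from the other groups, which overlapped each other. The plakophilin pair behaved alike: pkp1b had 0.842 and 1.06 counts per pkp1a count in mutant melanoma, 2.53 and 2.43 in control melanoma, and 2.81 and 2.48 in wild-type melanophores. The other pairs differed between groups in other ways. The ratio of jupa to jupb counts was 186 and 262 in mutant melanoma, 43.2 and 54.5 in control melanoma, and 192 and 163 in wild-type melanophores, where the mutant ratios rest on 13 and 7 jupb counts, and control melanoma was lowest while the other groups overlapped. For pkp3a to pkp3b it was 47.8 and 34.3 in mutant melanoma, 24.5 and 23.3 in control melanoma, and 102 and 85.0 in wild-type melanophores, without overlap and with wild type highest.

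Beta-catenin, a close relative of plakoglobin that serves adherens junctions and Wnt signalling, is encoded by ctnnb1 and ctnnb2. The gene jupa had 2.94 and 3.71 counts per ctnnb1 count in mutant melanoma, 3.38 and 3.62 in control melanoma, and 5.89 and 6.86 in wild-type melanophores. Per ctnnb2 count it had 3.79 and 4.80 in mutant melanoma, 4.99 and 4.67 in control melanoma, and 4.72 and 4.78 in wild-type melanophores. Both melanoma groups thus lay below wild type relative to ctnnb1, whereas all 3 groups were close together, but for 1 lower mutant library, relative to ctnnb2. By CPM, ctnnb1 itself was higher in the melanomas, with log2 fold changes of 0.69 in mutant melanoma (adjusted p = 0.014, edgeR) and 0.63 in control melanoma (adjusted p = 2.3e-09) against wild type. The ratio of dsc2l to jupa counts was 0.830 and 0.793 in mutant melanoma, 0.898 and 0.765 in control melanoma, and 1.14 and 1.22 in wild-type melanophores. The ratio of periplakin to envoplakin was 1.94 and 3.08 in mutant melanoma, 1.59 and 1.79 in control melanoma, and 1.85 and 2.21 in wild-type melanophores, so that the replicates of mutant melanoma differed more than the group means.

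Since these genes are known chiefly from epidermis, their counts were also set against 1000 counts of keratin and epidermal identity genes of the same library. These sums weigh abundant genes most, and such genes changed themselves. In mutant against control melanoma, the log2 fold changes were 1.00 for krt5, 1.34 for icn, 0.31 for krt91 and 0.35 for epcam. Scaling without these genes was not tested. Per 1000 such counts, all 8 linker genes except dspb were lower in both mutant libraries than in both control melanoma libraries. Most genes were lower when scaled by these counts, with a median log2 fold change over all genes of -0.51 in mutant against control melanoma. Plakophilin pkp3a had 18.1 and 17.0 counts per 1000 in mutant melanoma, 32.3 in each control melanoma library, and 34.2 and 33.7 in wild-type melanophores. Control melanoma was thus near wild type and mutant melanoma apart. Plakoglobin jupa had 23.5 and 26.0 per 1000 in mutant melanoma, 32.6 and 35.3 in control melanoma, and 28.1 and 26.2 in wild-type melanophores, which placed control melanoma above wild type. Most genes did so under this scaling, with a median log2 fold change over all genes of 0.53 in control melanoma against wild type. Periplakin ppl had 6.69 and 8.31 per 1000 in mutant melanoma, 12.7 and 13.3 in control melanoma, and 19.99 and 19.6 in wild-type melanophores. Envoplakin evpla had 3.07 ± 0.53 per 1000 in mutant melanoma, 7.69 ± 0.36 in control melanoma, and 9.84 ± 1.34 in wild-type melanophores (SD, n = 2 each). These plakins kept the order of the groups that they had by CPM. Desmoplakin dspb had 14.5 and 14.0 per 1000 in mutant melanoma, 12.2 and 12.8 in control melanoma, and 15.9 and 14.0 in wild-type melanophores, with groups close together.

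**Figure D4:**
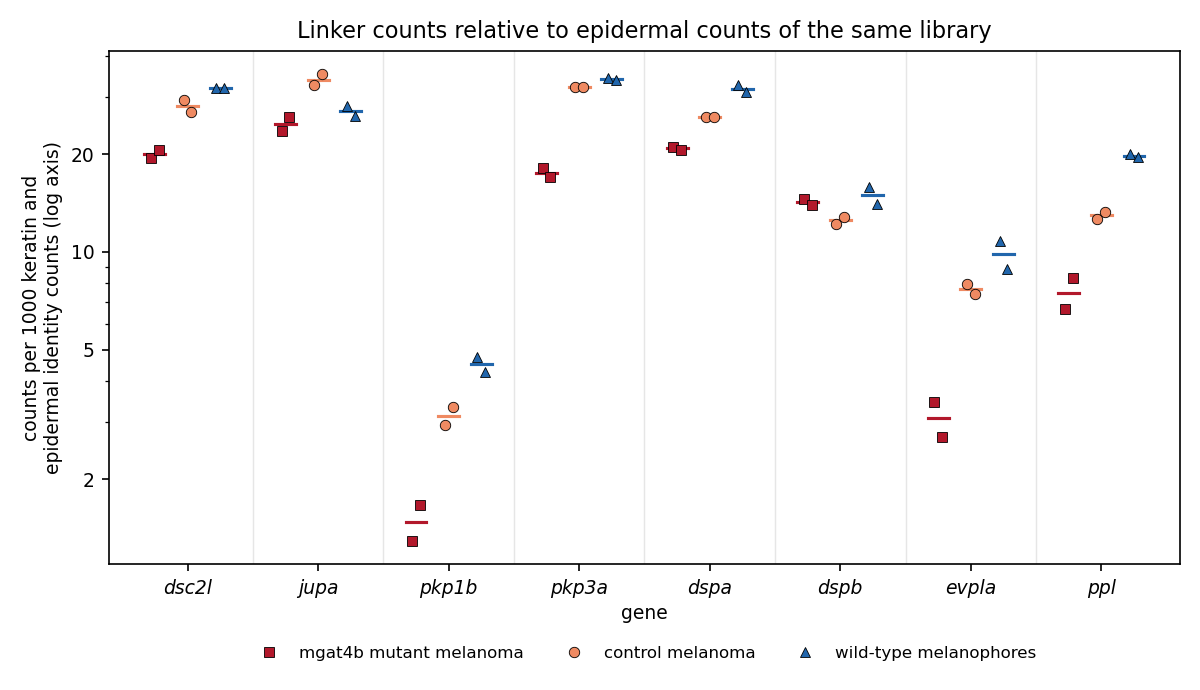
Counts of each linker gene per 1000 counts of keratin and epidermal identity genes in the same library, on a log axis, with squares for mgat4b mutant melanoma, circles for control melanoma, triangles for wild-type melanophores and a bar at each group's mean. For 7 of the 8 genes the mutant libraries lie below the control melanoma libraries, and jupa in control melanoma (32.6 and 35.3) lies above wild type (28.1 and 26.2). Under this scaling the median log2 fold change over all genes is -0.51 in mutant against control melanoma. It is 0.53 in control melanoma against wild type.

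Markers of other cells moved with the groups too. The 21 epidermal identity genes summed to 8560 and 8204 CPM in mutant melanoma, 5723 and 5553 CPM in control melanoma, and 7038 and 7300.5 CPM in wild-type melanophores, and the 15 fibroblast and scale genes to 13597 and 13102 CPM in mutant melanoma, 69970 and 71612 CPM in control melanoma, and 5489 and 4998 CPM in wild-type melanophores. The 11 leukocyte genes summed to 767 and 724 CPM in mutant melanoma, 975 and 1012 CPM in control melanoma, and 2931 and 2953 CPM in wild-type melanophores. The 15 skeletal muscle genes summed to 801 and 693 CPM in mutant melanoma, 1386 and 1406 CPM in control melanoma, and 76.0 and 65.9 CPM in wild-type melanophores. By these sums, fibroblast and muscle markers were therefore highest and keratin and epidermal markers lowest in control melanoma. The leukocyte sum was highest in wild-type melanophores. Single genes varied: in mutant against control melanoma, 9 of 20 epidermal identity genes and 5 of 14 keratins tested had negative log2 fold changes. No gene of these lists was at 0 in all libraries. The part of these cell types in the linker results was not tested beyond the epidermal scaling.

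The other 7 desmosome genes did not share one direction. In mutant melanoma against wild type 1 was called higher and 1 lower, in control melanoma against wild type 3 were called higher and none lower, and in mutant against control melanoma 2 were called lower, beside the shares of all genes given above for each comparison. Their median log2 fold changes were -0.55, -0.48 and -0.19 in these comparisons. The abundant members resembled the linkers: desmoglein dsg2.1 had 789 and 854 CPM in mutant melanoma, 954 and 947 CPM in control melanoma, and 1392 and 1411 CPM in wild-type melanophores, with log2 fold changes of -0.74 in mutant and -0.48 in control melanoma against wild type, both short of a call. For perp, a membrane protein that desmosomes need in mice, they were -0.69 in mutant and -0.64 in control melanoma against wild type, also short of a call. The plakophilin pkp2 fell in mutant melanoma against wild type by 1.22 on the log2 scale. The genes called higher in control melanoma against wild type were the sparsely expressed pkp3b, pkp4 and jupb, and jupb, the partner of jupa, had 2.78 and 2.07 CPM in mutant melanoma, 11.7 and 9.98 CPM in control melanoma, and 3.44 and 3.89 CPM in wild-type melanophores.

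**Figure D5:**
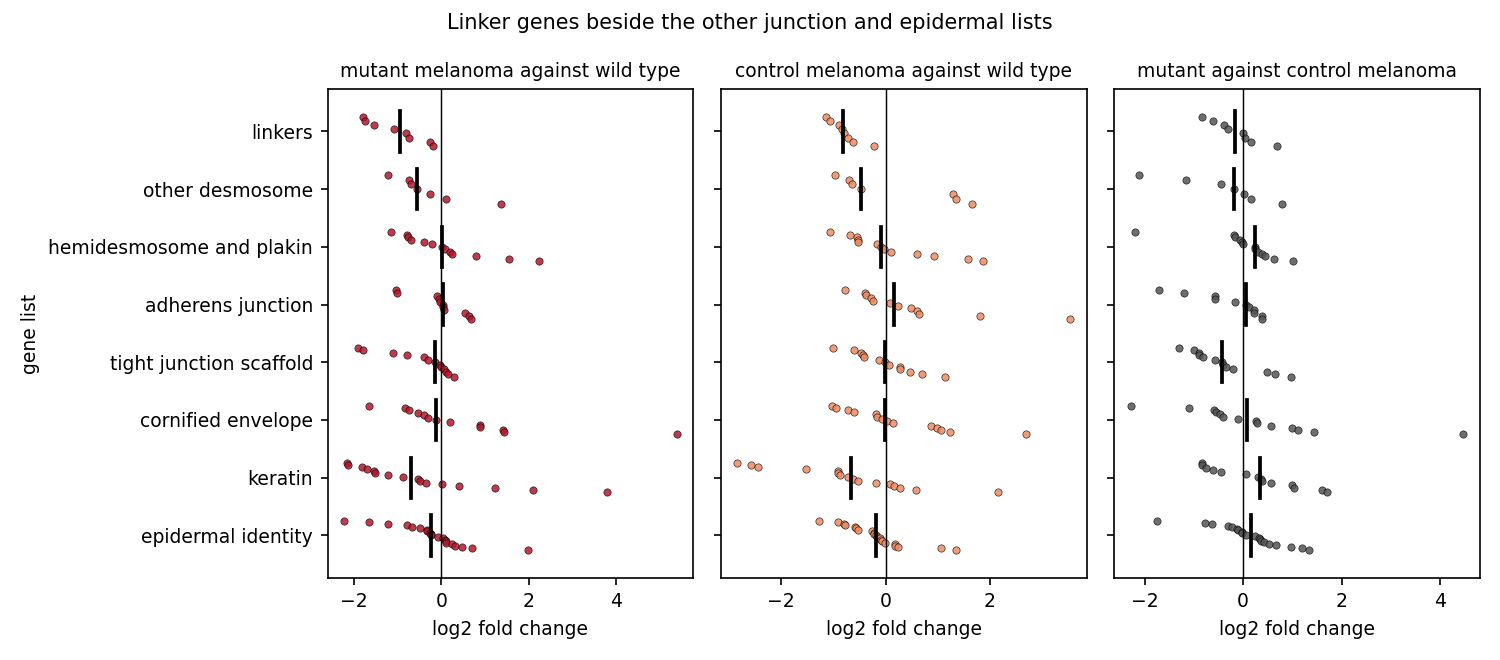
Log2 fold change after TMM scaling of each tested gene (points) of the linkers and of 7 other junction and epidermal lists, with a vertical bar at each list's median, in mutant melanoma against wild type, control melanoma against wild type and mutant against control melanoma. Every linker lies below 0 against wild type in both melanoma groups (median -0.94 in mutant and -0.82 in control melanoma). The other lists spread over both sides of 0. Under the epidermal scaling jupa moves above 0 in control melanoma against wild type, where the median over all genes is 0.53.

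Other junction lists had medians nearer 0 against wild type. Their calls stand beside shares of all genes of 9.54% lower and 9.72% higher in mutant melanoma against wild type. In control melanoma against wild type these shares were 12.1% lower and 19.9% higher. Of the 13 hemidesmosome and other plakin genes tested, 1 was called lower and none higher in mutant melanoma against wild type, with a median log2 fold change of 0.01, and 2 were called higher and 1 lower in control melanoma against wild type, with a median of -0.09. The laminin lamb3 was called lower in both melanoma groups, by -1.15 in mutant and -1.07 in control melanoma. Of the 11 adherens junction genes tested in mutant melanoma against wild type, 2 were called lower, with a median of 0.04, and of the 12 tested in control melanoma against wild type, 2 were called higher, with a median of 0.16. The epithelial cadherin cdh1 had 819 and 866 CPM in mutant melanoma, 860.0 and 789.8 CPM in control melanoma, and 807 and 847 CPM in wild-type melanophores. All 3 groups of cdh1 overlapped, whereas for the desmosomal cadherin dsc2l the wild-type libraries stood above both melanoma groups. Of the 13 tight junction scaffold genes tested, 3 were called lower in mutant melanoma against wild type, with a median of -0.14, and 1 higher and 1 lower in control melanoma against wild type, with a median of -0.02.

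The other cornified envelope genes did not share one direction. Of 13 tested in mutant melanoma against wild type, 2 were called higher and 1 lower, and of 14 tested in control melanoma against wild type, 3 were called higher and 1 lower. Of all genes, 9.72% were called higher and 9.54% lower in the first comparison, and 19.9% higher and 12.1% lower in the second. These shares also apply to the keratins below. Sciellin, scel, a cornified envelope precursor in mammals, was called lower in both, by -1.66 in mutant and -1.03 in control melanoma. As for evpla and ppl, its mean was lowest in mutant melanoma (46.5 CPM, against 68.5 CPM in control melanoma and 149 CPM in wild-type melanophores). The direct difference between mutant and control melanoma did not pass the test for scel (-0.55, adjusted p = 0.071, edgeR) or for ppl. The transglutaminase gene tgm1l1 had this order of group means too, with 130.3 CPM in mutant melanoma, 198 CPM in control melanoma and 237 CPM in wild-type melanophores. The S100 protein gene s100a10b instead had 1333 and 1301 CPM in mutant melanoma, 478 and 504 CPM in control melanoma, and 492 and 523 CPM in wild-type melanophores, and was called higher in mutant melanoma against wild type (log2 fold change 1.40) and against control melanoma (1.44). The transglutaminase gene tgm1l2, of a family of enzymes that cross-link envelope proteins, had 34.2 and 36.7 CPM in mutant melanoma, 1.24 and 1.97 CPM in control melanoma, and 1.28 and 0.409 CPM in wild-type melanophores. The keratins to which desmoplakin links had a median log2 fold change of -0.70 in mutant melanoma against wild type, where 3 of 16 were called higher and 5 lower, and of -0.67 in control melanoma against wild type, where 1 of 16 was called higher and 4 lower. Abundant krt5 had 5097 and 4734 CPM in mutant melanoma, 2520.1 and 2468 CPM in control melanoma, and 4756 and 5115 CPM in wild-type melanophores.

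As a description, each linker was correlated over the 6 libraries with the median of the 8 genes. Each gene enters that median itself, so high values are partly built in. The log2 CPM of ppl (Pearson's r = 0.991) and dsc2l (0.981) followed the median of the 8 genes most closely and that of dspb least (0.566). Outside the set, the genes most like this median among 2216 genes of at least 50 mean CPM were ier2a, syne1b, RPL24, VPS13D and tsc22d3, all at r = 0.999 over 6 libraries. With 3 groups of 2 libraries such values mainly say that a gene has the same order of group means.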

How the data were processed

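RNA was measured in 6 libraries, 2 for each of 3 groups, with groups and replicates taken from the sample labels. Libraries were made from total RNA after removal of ribosomal RNA. According to the paper's methods and the submitters' processing notes, the authors used Trimmomatic for trimming, STAR for alignment against the GRCz11 genome and featureCounts for counting. The deposited values are the resulting counts of each gene, not normalized, with coordinates and exonic lengths. The annotation release, strand setting and handling of reads matching several genes are not given in the sources used here, so paralogs could share or lose reads.

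Symbols were matched through a table of identifiers, which covered 29201 of 32520. The symbols DSP, JUP and PKP1 stand there for several genes or lack a suffix, and the copies were told apart by the chromosome of the gene of that name in RefSeq's annotation of the GRCz12tu assembly. R 4.3.3 was used with edgeR 4.0.16 and DESeq2 1.42.0, and Python 3.11.15 with matplotlib 3.10.9 for the plots. For each pair of groups, the 4 libraries entered one fit after filterByExpr (minimum count 10, minimum total 15) and TMM. CPM in the text are scaled over all 6 libraries. The procedure was tested on simulated counts in which both groups shared the same gene proportions but for a set of changed genes. That test therefore cannot tell whether the scaling suits groups with such different shares of rn7sl1. Within each group the pair of libraries differed beyond sampling noise, so each was counted, but this does not show that they came from separate fish. The mean chi-square per gene between the pair was 10.2 in mutant melanoma, 2.52 in control melanoma and 2.31 in wild-type melanophores. The spread edgeR estimated (biological coefficient of variation) was 0.079 in control melanoma against wild type. It was 0.21 in mutant melanoma against wild type and 0.23 in mutant against control melanoma.

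The genes and lists were chosen with earlier results of these data known. The rule for named genes took all linker genes, in each junction list the 3 genes of highest mean CPM and the called gene of lowest p per comparison, in each marker list the 2 of highest mean CPM, the 5 genes closest to the linkers' median profile, and mgat4b. Of these, the genes described were picked after their values were seen, and pkp1a and ctnnb2 were added for their ratios to pkp1b and jupa. Alternatives were DESeq2, its size factors in edgeR, other filters on low counts, all 6 libraries in one fit, a replicate block, library sizes that leave out mitochondrial genes and the 20 most abundant ones, scaling by keratin and epidermal identity counts, raw totals, no minimum fold change, and leaving out each library. The authors' reads and the study's other data types were not analysed here.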

Additional observations from a re-analysis of the deposited data

Results flagged for a closer look

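For 3 linker genes the change against wild-type melanophores differed between the melanoma groups, by the direct test of mutant against control melanoma (edgeR). They were picked by an adjusted p below 0.05 alone, which 9.26% of all genes tested passed as lower and 9.46% as higher. Desmoplakin dspb was higher in mutant melanoma by a log2 fold change of 0.68 (adjusted p = 0.0020), which was 0.19 and no longer passed the test when libraries were scaled by epidermal counts. Plakophilin pkp3a was lower by -0.39 (adjusted p = 0.021) and envoplakin evpla by -0.83 (adjusted p = 0.0071), and under the epidermal scaling these were -0.88 and -1.32. The median over all genes was -0.51 under that scaling. For each of the 3 genes both mutant libraries lay on the same side of both control melanoma libraries. The test that picked these genes used the same libraries, so this adds no support. With single libraries left out, the adjusted p reached 0.038 for dspb, 0.025 for evpla and 0.2196 for pkp3a.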

How the results depend on the processing

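With 2 libraries per group, precision is limited, and a fit without a library assumes that the lone library of its group varies like the others. With no minimum fold change, 7 linker genes passed in mutant melanoma against wild type, 8 in control melanoma against wild type and 3 in mutant against control melanoma. Of all genes tested, 27%, 56.2% and 18.7% passed in these comparisons, in either direction. Scaling by keratin and epidermal identity counts gave 3, 0 and 2 calls in these comparisons, all lower, against 7.61%, 4.58% and 16.1% of all genes called lower, and moved the median log2 fold change of all genes to 0.097, 0.53 and -0.51. Under it, the share of all calls that were higher was 60.4%, 87.7% and 12.6%, against 50.4%, 62.4% and 46.9% after TMM. It reversed jupa in control melanoma against wild type (0.32) and jupa (-0.46) and dspa (-0.32) in mutant against control melanoma. Its denominator weighs abundant genes such as krt5 and icn most. After TMM these were themselves higher in mutant than in control melanoma, by log2 fold changes of 1.00 and 1.34. With at least 10 counts in every library, jupa in mutant against control melanoma was -0.048. Calls near a log2 fold change of 1 in size could depend on the library left out. Leaving out each library moved pkp3a between -1.19 and -1.01 in mutant melanoma against wild type. In control melanoma against wild type it moved pkp1b between -1.16 and -0.99 and evpla between -1.03 and -0.79. In mutant against control melanoma it moved evpla between -1.08 and -0.64. In the last comparison it moved jupa between -0.046 and 0.058 and dsc2l between -0.090 and 0.038. DESeq2, its size factors, no filter, the joint fit of all 6 libraries and library sizes without the most abundant genes gave 4, 2 and 0 calls in each case. The share of all genes called in either direction differed between these settings. It ran from 10.9% to 22.5% in mutant melanoma against wild type and from 22.6% to 32.8% in control melanoma against wild type. In mutant against control melanoma it ran from 4.77% to 15.8%. The replicate numbers pair nothing: correlations of same-numbered deviations were -0.00033, -0.028 and -0.0071 over 9053 genes. The fit with the replicate block called 4, 2 and 0 linker genes as well, against 19.2%, 31.1% and 12.2% of all genes. CPM on raw totals, without TMM, made the gaps to wild type wider: ppl averaged 149 CPM in mutant melanoma, 158 CPM in control melanoma and 652 CPM in wild-type melanophores.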
